A study of Zea mays with 21 samples.

Results

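Zm00001d028759, a pyruvate decarboxylase gene, and Zm00001d033931, the alcohol dehydrogenase gene adh1, encode the enzymes of ethanol fermentation and are 2 of the 23175 PCgenes listed for waterlogged maize root tips. They were chosen by their IDs, both IDs were found, and both passed the filter on low values (a mean above 1 TPM over all libraries), as did 22783 PCgenes in all. The paper pairs Zm00001d028759 with pyruvate decarboxylase, whereas the name adh1 came with the choice of Zm00001d033931 and was not checked against an annotation. B73 is an inbred maize line, and its seedlings at the second leaf stage were kept under a layer of water over the substrate for 2, 4, 6, 8, 10 or 12 h (WS_2h to WS_12h), and WS_0h root tips were taken before the water was added. Each of the 7 time points had 3 libraries of 10 mixed primary root tips, which are whole organ pieces of many cell types, so fewer cells of a type and less RNA per cell cannot be told apart. No markers of root or shoot cells could be matched to the IDs, and the tissue label was therefore not checked. Stress began at the same morning hour for all plants and no unstressed plants were sampled later, so the time of day cannot be told apart from the hours under water.

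Waterlogging cuts the supply of oxygen to roots. Without oxygen the mitochondria no longer take up the electrons of NADH, and glycolysis stops unless NADH is turned back into NAD+ in another way. In ethanol fermentation, pyruvate decarboxylase removes carbon dioxide from pyruvate and leaves acetaldehyde, and alcohol dehydrogenase reduces acetaldehyde to ethanol with NADH. Maize adh1 is a classical gene of the anaerobic response of roots, and the 2 enzymes act one after the other on the same carbon.

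Both genes were already detected before stress, and both were far higher at every time of waterlogging. The mean TPM of pyruvate decarboxylase was highest at WS_4h and that of adh1 at WS_6h, and both means were lower at WS_8h than at WS_6h and WS_10h. TPM values take the length of a gene into account and are scaled to a common total over the genes counted, so the levels of both genes can be compared on the TPM scale.

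Pyruvate decarboxylase (Zm00001d028759) had 85.92, 85.87 and 90.91 TPM in the WS_0h libraries. It had 579.47, 842.91 and 679.15 TPM at WS_2h, then 2782.34, 2442.89 and 2536.65 TPM at WS_4h, and 2339.15, 2173.45 and 2210.16 TPM at WS_6h. It had 884.65, 1018.44 and 1151.44 TPM at WS_8h, 1844.49, 1684.74 and 1605.23 TPM at WS_10h, and 1527.23, 1536.87 and 1546.79 TPM at WS_12h. No library of one time point lay within the range of another, and the order from low to high was WS_0h, WS_2h, WS_8h, WS_12h, WS_10h, WS_6h and WS_4h. The closest neighbours in this order were WS_12h and WS_10h, with means 174.5 TPM apart and a larger SD of 121.9 TPM.

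The adh1 gene (Zm00001d033931) had 15.82, 31.78 and 31.97 TPM at WS_0h. It had 231.27, 506.24 and 447.74 TPM at WS_2h, then 943.60, 707.79 and 714.44 TPM at WS_4h, and 1053.10, 976.94 and 1229.32 TPM at WS_6h. It had 856.20, 650.65 and 470.10 TPM at WS_8h, 815.77, 834.41 and 851.94 TPM at WS_10h, and 1273.72, 867.01 and 949.51 TPM at WS_12h. The means of adh1 followed the order WS_0h, WS_2h, WS_8h, WS_4h, WS_10h, WS_12h and WS_6h, but neighbours above WS_0h mostly overlapped: WS_8h overlapped both WS_2h and WS_4h, WS_4h overlapped WS_10h, and WS_12h overlapped WS_6h. WS_12h and WS_10h did not overlap, although their means differed by 196 TPM, less than the larger SD of 215 TPM.

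**Figure D1:**
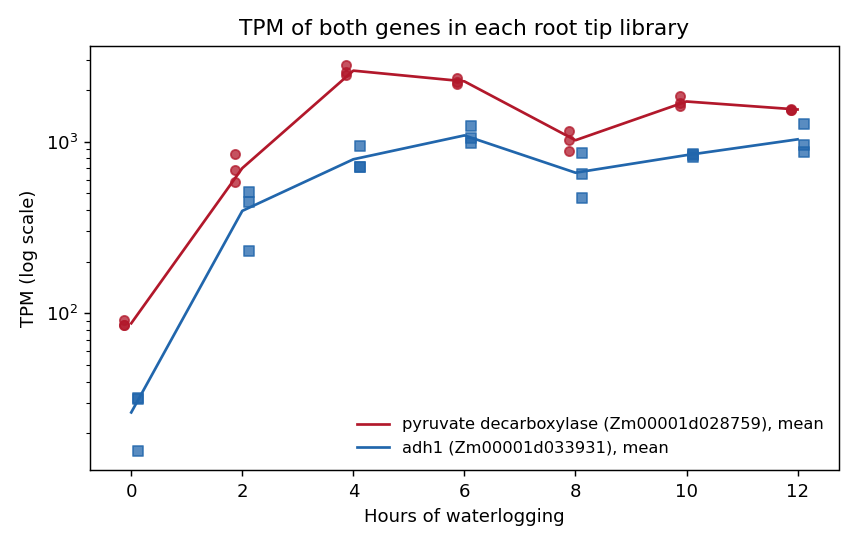
TPM on a log axis (y) against hours of waterlogging (x) for pyruvate decarboxylase (circles) and adh1 (squares), with 1 point per library and lines through the means of 3 libraries. The WS_0h libraries of both genes lie below all of their 18 later libraries, and pyruvate decarboxylase separates its time points more cleanly than adh1.

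Replicate libraries were closer to each other in pyruvate decarboxylase than in adh1 at 6 of the 7 time points, WS_10h being the exception. The coefficient of variation of pyruvate decarboxylase lay between 0.636% (WS_12h) and 19.0% (WS_2h), and that of adh1 between 2.17% (WS_10h) and 36.7% (WS_2h). In the WS_0h libraries it was 3.31% for pyruvate decarboxylase and 34.95% for adh1, whose replicate 1 (15.82 TPM) lay far below the other libraries. The 3 WS_2h libraries of both genes were ordered alike, with replicate 1 lowest and replicate 2 highest. In the 3 WS_8h libraries they were ordered in opposite ways: replicate 1 was lowest in pyruvate decarboxylase and highest in adh1, and replicate 3 the reverse.

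Among all 23175 listed PCgenes, pyruvate decarboxylase ranked 1100 by mean TPM at WS_0h, 78 at WS_2h, 8 at WS_4h, 9 at WS_6h, then 36 at WS_8h, 16 at WS_10h and 22 at WS_12h. By the same measure adh1 ranked 3997 at WS_0h, 200 at WS_2h, 63 at WS_4h, 37 at WS_6h, then 78 at WS_8h, 58 at WS_10h and 40 at WS_12h. Together these 2 transcripts made up 0.0205% ± 0.0016 of the listed TPM at WS_0h (SD, n = 3), 0.173% ± 0.048 at WS_2h, 0.614% ± 0.051 at WS_4h, 0.519% ± 0.024 at WS_6h, then 0.286% ± 0.035 at WS_8h, 0.399% ± 0.013 at WS_10h and 0.40% ± 0.028 at WS_12h. At WS_4h the share was thus the highest of the 7, and the share at WS_8h was the lowest after WS_2h among the waterlogged time points. The summed TPM of both genes was nearly level at WS_4h and WS_6h, with means of 3376 and 3327. The TPM of all listed PCgenes summed to less at WS_4h (546858 to 554204 per library) than at WS_6h (626928 to 668642). The higher share at WS_4h than at WS_6h therefore goes mostly with the lower listed total.

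Each time of waterlogging was then compared with WS_0h, the question of the study, in 1 limma fit of log2(TPM + 1) over all 21 libraries. A PCgene was called up or down at a Benjamini-Hochberg adjusted p under 0.05 together with a log2 fold change above 1 or below -1. The 6 comparisons share the WS_0h libraries. At each of the 6 times both genes were called up, as were 2.11% of the PCgenes tested. The paper already lists Zm00001d028759 among the genes up-regulated at every time point in these same libraries, so its calls are not independent evidence. All 18 waterlogged libraries lay above all 3 WS_0h libraries for both genes, as they did for 5.62% of the PCgenes tested. The shares of PCgenes up-regulated at the single time points were 4.18% at WS_2h, 19.3% at WS_4h, 9.09% at WS_6h, then 4.3% at WS_8h, 7.86% at WS_10h and 8.06% at WS_12h.

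For pyruvate decarboxylase the log2 fold change against WS_0h was 2.97 at WS_2h, 4.87 at WS_4h, 4.66 at WS_6h, then 3.52 at WS_8h, 4.27 at WS_10h and 4.12 at WS_12h, each with a standard error of 0.15. The largest adjusted p of the 6 was 6.72e-11 (limma with Benjamini-Hochberg, WS_2h). In means of TPM these were 8.00, 29.5, 25.6, 11.6, 19.5 and 17.6 times the WS_0h mean. Placed among the 22783 PCgenes tested, the log2 fold change ranked between 96 (WS_6h) and 155 (WS_2h) from the highest.

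For adh1 the log2 fold change against WS_0h was 3.84 at WS_2h, 4.90 at WS_4h, 5.36 at WS_6h, then 4.61 at WS_8h, 4.99 at WS_10h and 5.27 at WS_12h, each with a standard error of 0.30. The largest adjusted p of the 6 was 2.67e-08 (limma with Benjamini-Hochberg, WS_2h). In means of TPM these were 14.9, 29.7, 41.0, 24.8, 31.4 and 38.8 times the WS_0h mean. The rank from the highest lay between 55 (WS_8h) and 119 (WS_4h). The fold changes of adh1 rest on a low WS_0h level, and without WS_0h replicate 1 they were lower at all 6 time points (3.51 at WS_2h and 5.04 at WS_6h) and were still called.

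**Figure D2:**
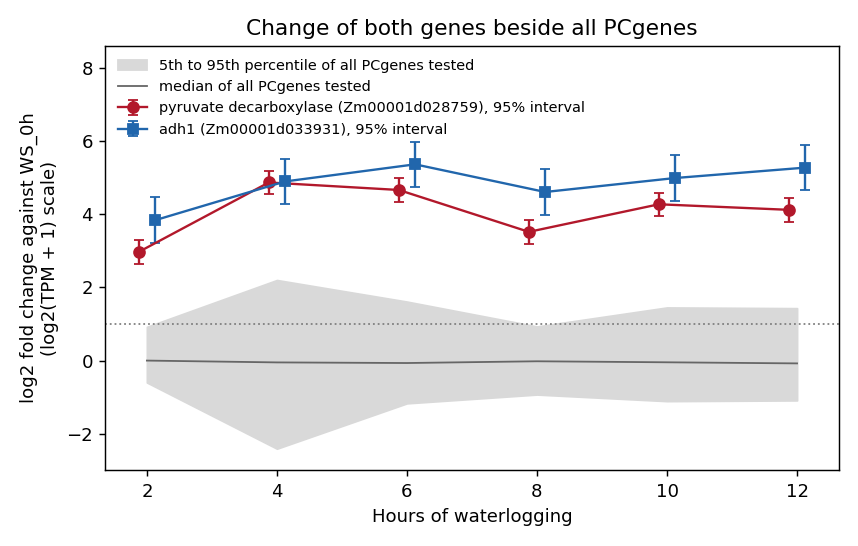
Log2 fold change against WS_0h on the log2(TPM + 1) scale (y) at each time of waterlogging in hours (x), with 95% intervals from the limma fit; the grey band spans the 5th to 95th percentile of all 22783 PCgenes tested, the grey line is their median and the dotted line the fold threshold of 1. Both genes lie above the band at all 6 time points, where its upper edge reaches at most 2.20 (WS_4h).

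The order of the rise was followed by comparing successive time points. At WS_2h pyruvate decarboxylase had reached 27.1% of its highest mean TPM and adh1 36.4% of its own. From there pyruvate decarboxylase rose further at WS_4h, with a log2 fold change of 1.90 against WS_2h (95% interval 1.58 to 2.22, limma adjusted p 8.64e-09, Benjamini-Hochberg), and all 3 WS_4h libraries lay above the WS_2h libraries. The step of adh1 was 1.06 (95% interval 0.44 to 1.68, limma adjusted p 0.00376, Benjamini-Hochberg), and its 3 WS_4h libraries also lay above those of WS_2h. The call of adh1 at this step rested on single libraries: the value was 0.71 without WS_2h replicate 1 and 0.92 without WS_4h replicate 1, and neither was called. Up-regulation at WS_4h against WS_2h was called for 17% of the PCgenes tested.

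Between WS_4h and WS_6h neither gene passed the test. The WS_6h libraries of pyruvate decarboxylase lay below those of WS_4h, with a log2 fold change of -0.21 (95% interval -0.53 to 0.12, limma adjusted p 0.242, Benjamini-Hochberg). The WS_6h libraries of adh1 lay above those of WS_4h, with 0.47 (95% interval -0.15 to 1.09, limma adjusted p 0.171, Benjamini-Hochberg). The different hours of their highest means were therefore not resolved for either gene taken alone. At this step 18.4% of the PCgenes tested were called up and 13.3% down.

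At WS_8h pyruvate decarboxylase fell to a mean of 1018 ± 133 TPM, against 2241 ± 87.0 TPM at WS_6h (SD, n = 3 each), a log2 fold change of -1.14 (95% interval -1.47 to -0.82, limma adjusted p 7.85e-05, Benjamini-Hochberg). It kept this call when single libraries were left out and in the other alternatives, with values from -1.24 to -1.05. Down-regulation at WS_8h against WS_6h was called for 5.36% of the PCgenes tested. The adh1 gene had a mean of 659 ± 193 TPM at WS_8h, against 1086 ± 129 TPM at WS_6h (SD, n = 3 each). All 3 WS_8h libraries of adh1 lay below the WS_6h libraries, but its log2 fold change of -0.76 (95% interval -1.38 to -0.13) missed the threshold (limma adjusted p 0.082, Benjamini-Hochberg).

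The mean of pyruvate decarboxylase was 1711 ± 122 TPM at WS_10h, against 1018 ± 133 TPM at WS_8h (SD, n = 3 each). Its log2 fold change of 0.75 (95% interval 0.43 to 1.08) had an adjusted p of 0.00507 (limma with Benjamini-Hochberg) but stayed under the fold threshold, and the WS_10h libraries lay above those of WS_8h. The value for adh1 was 0.38 (95% interval -0.24 to 1.004, limma adjusted p 0.569, Benjamini-Hochberg), and its libraries overlapped, since WS_8h replicate 1 (856.20 TPM) lay above all 3 WS_10h libraries. Up-regulation at WS_10h against WS_8h was called for 2.8% of the PCgenes tested.

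The 8 h drop was also measured against both neighbours together, the mean of WS_6h and WS_10h. This comparison was chosen with earlier results of these data known, so its p-values are not those of a drop named beforehand. For pyruvate decarboxylase this log2 difference was -0.95 (95% interval -1.23 to -0.67, limma adjusted p 0.000111, Benjamini-Hochberg), past the p threshold and just short of the fold threshold, and -1.04 and called without WS_8h replicate 3. For adh1 it was -0.57 (95% interval -1.11 to -0.03, limma adjusted p 0.147, Benjamini-Hochberg). A drop was called for 4.17% of the PCgenes tested. The WS_8h libraries lay below all 6 neighbouring libraries for pyruvate decarboxylase, as for 9.92% of the PCgenes tested, and not for adh1. The median log2 difference of all PCgenes tested was 0.035 in this comparison. At WS_8h both genes still stood 3.52 and 4.61 on the log2 scale above WS_0h.

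Between WS_12h and WS_10h no PCgene passed limma with Benjamini-Hochberg (0% of those tested). An unadjusted limma p under 0.05 was found for 525 of 22783, a smaller share than the 0.05 to be had without any change. Here the log2 fold change was -0.15 for pyruvate decarboxylase (95% interval -0.47 to 0.17) and 0.28 for adh1 (95% interval -0.34 to 0.91).

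The ratio of pyruvate decarboxylase to adh1 TPM was taken within each library, where it does not depend on how the library was scaled. It was 5.43, 2.70 and 2.84 at WS_0h, 2.51, 1.67 and 1.52 at WS_2h, 2.95, 3.45 and 3.55 at WS_4h, and 2.22, 2.22 and 1.80 at WS_6h. It was 1.03, 1.57 and 2.45 at WS_8h, 2.26, 2.02 and 1.88 at WS_10h, and 1.199, 1.77 and 1.63 at WS_12h. Pyruvate decarboxylase was the higher transcript in all 21 libraries, least so in WS_8h replicate 1, where both were nearly level. Replicate 1 of WS_4h, WS_8h and WS_12h had the most listed PCgenes at 0 TPM (176, 168 and 152). Each of these libraries also had the lowest ratio and the highest adh1 TPM of its time point. WS_6h replicate 2 came next with 114 and had the lowest adh1 TPM of its time point. A link between these zeros and the ratio was not tested.

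Geometric means of the ratio were 3.47 at WS_0h, 1.85 at WS_2h, 3.31 at WS_4h, 2.07 at WS_6h, then 1.58 at WS_8h, 2.05 at WS_10h and 1.51 at WS_12h. Between the 7 time points the log2 ratio differed (F = 4.75, permutation p = 0.00509 from 100000 permutations, adjusted p = 0.0204 over the 4 ratio tests), so the genes did not keep 1 proportion over the series. The later libraries together had a lower ratio (1.99) than the WS_0h libraries (3.47), a log2 difference of 0.80 for WS_0h minus later ones (exact two-sided permutation test, p = 0.0188, adjusted p = 0.0376 over 4). This call was lost without any 1 of the WS_0h libraries, with a difference of 0.48 and an adjusted p of 0.263 without replicate 1, and of 0.98 and 0.94 (adjusted p 0.0526 for both) without replicate 2 and 3.

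At WS_2h the ratio was 1.85, against 2.02 in the 15 later libraries, and the difference did not pass (exact two-sided permutation p = 0.684, adjusted p = 0.684 over 4). The ratio at WS_8h was 1.58, against 2.08 in the other 15 waterlogged libraries, and this difference did not pass either (exact two-sided permutation p = 0.197, adjusted p = 0.263 over 4). The log2 ratio of the WS_8h libraries had an SD of 0.62, the widest of the 7 time points, against 0.13 at WS_10h.

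Single pairs of time points have 3 libraries on each side, and an exact two-sided test then cannot go below p = 0.1. Against WS_0h, the log2 ratio differed by -0.91 at WS_2h, -0.07 at WS_4h, -0.74 at WS_6h, then -1.13 at WS_8h, -0.76 at WS_10h and -1.20 at WS_12h. WS_4h was the only one of the 6 whose libraries overlapped those of WS_0h (exact p = 1), and in the other 5 all libraries lay below WS_0h (exact p = 0.1 each). At WS_4h the log2 ratio was 0.84 above that of WS_2h, and the difference of WS_6h from WS_4h was -0.68. None of the libraries overlapped in either step (exact p = 0.1 each). Against WS_6h the WS_8h libraries overlapped (difference -0.39, exact p = 0.4), as did WS_10h against WS_8h (0.37, exact p = 0.5), while WS_12h lay below WS_10h (-0.44, exact p = 0.1).

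**Figure D3:**
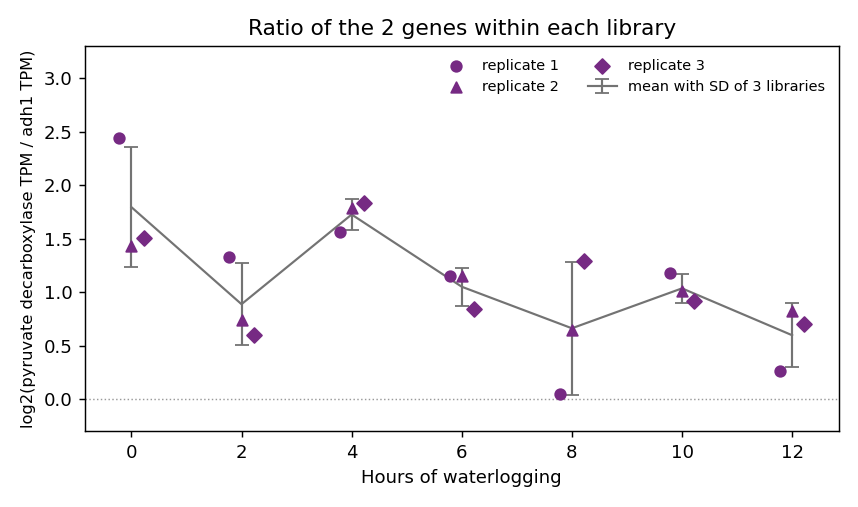
Log2 of pyruvate decarboxylase TPM over adh1 TPM within each library (y) against hours of waterlogging (x); symbols are the 3 replicates, the grey line joins the means and bars are the SD of 3 libraries. The ratio stood at 3.47 at WS_0h and 3.31 at WS_4h as geometric means, between 1.51 and 2.07 at the other time points, and was most spread at WS_8h.

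The other glycolysis and fermentation genes that the paper names by ID were 6 in number, and the paper picked them from these same libraries, so their direction is not independent evidence. All 6 were up-regulated at all 6 time points against WS_0h, beside the shares of all PCgenes given above. Their median log2 fold change was 1.33 at WS_2h, 2.49 at WS_4h, 2.39 at WS_6h, then 1.97 at WS_8h, 2.65 at WS_10h and 2.67 at WS_12h, against medians between -0.079 and -0.002 over all PCgenes tested. At WS_2h the call of Zm00001d017121 (1.08) was lost when only WS_2h and WS_0h were fitted (limma adjusted p 0.101, Benjamini-Hochberg). At WS_8h against WS_6h, 2 of the 6 were called down and none up, beside 5.36% down and 2.19% up over all PCgenes tested. The median log2 fold change of the 6 was -0.65, against 0.033 over all PCgenes tested, and the 6 values lay between -2.11 and -0.25.

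The closest relative in function was Zm00001d010588, which the paper names pyruvate decarboxylase1. It had 0.33, 0.31 and 0.24 TPM at WS_0h, 24.73, 101.64 and 85.15 TPM at WS_2h, then 446.60, 830.32 and 665.69 TPM at WS_4h, and 710.42, 689.61 and 797.23 TPM at WS_6h. It had 229.68, 273.38 and 226.70 TPM at WS_8h, 802.76, 684.85 and 711.68 TPM at WS_10h, and 814.44, 866.99 and 848.83 TPM at WS_12h. Unlike Zm00001d028759 and adh1, it was close to 0 before stress. Its WS_8h libraries lay below all libraries of WS_4h, WS_6h, WS_10h and WS_12h, as those of Zm00001d028759 did and those of adh1 did not.

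The log2 fold change of Zm00001d010588 against WS_0h was 5.56 at WS_2h and 9.35 at WS_12h (standard error 0.34, limma adjusted p 8.83e-10 and 3.47e-13 after Benjamini-Hochberg). At WS_6h and WS_12h it was the highest of all 22783 PCgenes tested. These values depend on the pseudocount because of the low WS_0h level, and with 0.1 TPM added they were 7.26 and 11.07. Its drop at WS_8h against the mean of WS_6h and WS_10h was -1.59 (95% interval -2.21 to -0.97, limma adjusted p 0.0012, Benjamini-Hochberg) and was called. Only reads that map to 1 place were counted, and how much sequence the pyruvate decarboxylase genes share with each other, or adh1 with other alcohol dehydrogenases, was not analysed here, so the levels are uncertain by the reads lost or misplaced in this way.

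Of the summed TPM of both pyruvate decarboxylase genes, Zm00001d010588 made up 0.335% ± 0.063 at WS_0h (SD, n = 3), 8.67% ± 3.96 at WS_2h, 20.0% ± 5.8 at WS_4h, 24.6% ± 1.67 at WS_6h, then 19.4% ± 2.58 at WS_8h, 30.0% ± 0.96 at WS_10h and 35.4% ± 0.64 at WS_12h. Its share ran between 34.8% and 36.1% in the WS_12h libraries and between 28.9% and 30.7% in those of WS_10h. This share was computed after the values had been seen and was not tested. Divided by adh1, the summed TPM gave geometric mean ratios of 3.48 at WS_0h, 2.03 at WS_2h, 4.14 at WS_4h, 2.75 at WS_6h, then 1.96 at WS_8h, 2.93 at WS_10h and 2.34 at WS_12h. With Zm00001d010588 added, WS_4h became the highest of the 7 ratios.

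**Figure D4:**
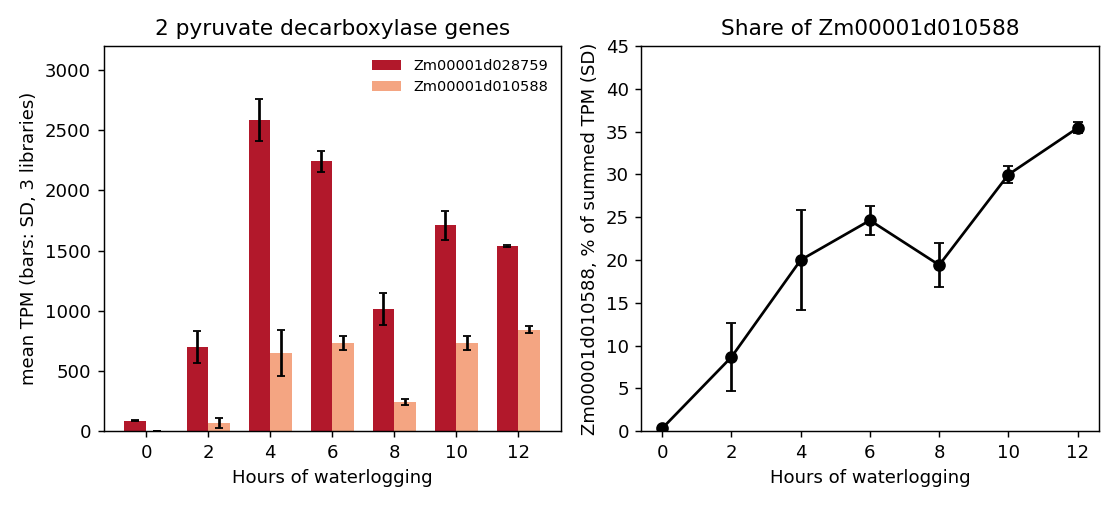
Left, mean TPM (y) of Zm00001d028759 and Zm00001d010588 against hours of waterlogging (x), with the SD of 3 libraries as error bars; right, Zm00001d010588 as a percent of the summed TPM of both genes, with the SD of 3 libraries. The share was 0.335% at WS_0h and 35.4% at WS_12h, and at WS_8h (19.4%) it was lower than at WS_6h (24.6%) and WS_10h (30.0%).

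Upstream in glycolysis, Zm00001d037689 (hexokinase7, which phosphorylates glucose) had means of 16.8 TPM at WS_0h, 392 TPM at WS_6h, then 90.7 TPM at WS_8h and 256 TPM at WS_10h. Its drop at WS_8h against the mean of WS_6h and WS_10h was -1.79 (95% interval -2.35 to -1.24, limma adjusted p 0.000184, Benjamini-Hochberg), the largest of the 8 genes considered here, and it was called. Zm00001d034256 (phosphohexose isomerase 1, which turns glucose 6-phosphate into fructose 6-phosphate) had a log2 difference of -0.65 in this comparison and Zm00001d052494 (pyruvate kinase, which makes the pyruvate that fermentation uses) one of -0.38, and neither was called (limma p adjusted after Benjamini-Hochberg 0.0191 and 0.0424, both under the fold threshold).

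Zm00001d012103 (aldolase2, which splits fructose 1,6-bisphosphate) and Zm00001d017121 (glyceraldehyde-3-phosphate dehydrogenase 4, the step of glycolysis that makes NADH) started from the highest WS_0h means of the 8 genes, 414 and 471 TPM, and their log2 differences of -0.68 and -0.45 in the 8 h comparison were not called (limma p adjusted after Benjamini-Hochberg 0.0197 and 0.123). Means of Zm00001d017121 were 1857 TPM at WS_8h, 2875 TPM at WS_10h and 3027 TPM at WS_12h. At WS_12h this was above the mean of pyruvate decarboxylase (1537 TPM) and of adh1 (1030 TPM).

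**Figure D5:**
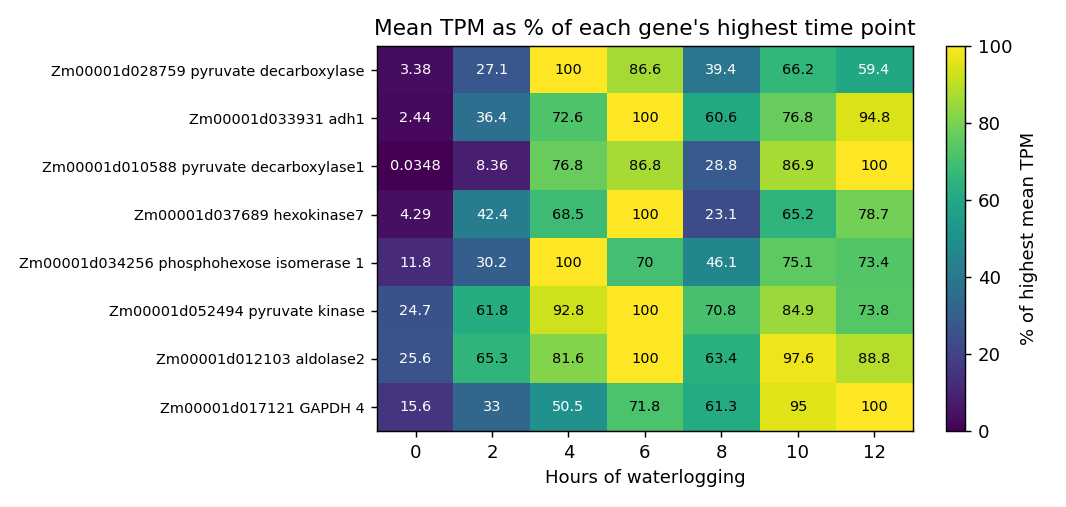
Mean TPM of the 8 genes (rows) at each time of waterlogging in hours (columns), as a percent of the highest of the gene's 7 means, printed in each cell and shown by colour; GAPDH 4 is glyceraldehyde-3-phosphate dehydrogenase 4. Highest means fall at WS_4h for Zm00001d028759 and Zm00001d034256, at WS_6h for Zm00001d033931 and 3 others, and at WS_12h for Zm00001d010588 and Zm00001d017121.

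The PCgenes with the profile most like each gene were found by Pearson r of log2(TPM + 1) over the 21 libraries, which share time points in groups of 3, so r serves as a description only. For pyruvate decarboxylase these were Zm00001d038775 (r = 0.996), Zm00001d031315 (0.995), Zm00001d009103 (0.994), Zm00001d033489 (0.993) and Zm00001d014258 (0.990). For adh1 they were Zm00001d014494 (r = 0.990), Zm00001d039771 (0.980), Zm00001d044291 (0.978), Zm00001d000126 (0.976) and Zm00001d045391 (0.976). None of these 10 IDs is paired with a name in the sources used here, and the lists had no gene in common.

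Zm00001d038775, nearest to pyruvate decarboxylase, had means of 17.0 TPM at WS_0h, 189 TPM at WS_2h, 731 TPM at WS_4h, 531 TPM at WS_6h, then 259 TPM at WS_8h, 429 TPM at WS_10h and 411.5 TPM at WS_12h. Like pyruvate decarboxylase it was highest at WS_4h and lower at WS_8h than at its neighbours. Zm00001d014494, nearest to adh1, had means of 0.497 TPM at WS_0h, 93.0 TPM at WS_2h, 200.3 TPM at WS_4h, 284 TPM at WS_6h, then 88.4 TPM at WS_8h, 205 TPM at WS_10h and 233 TPM at WS_12h, and was highest at WS_6h as adh1 was. Both nearest genes were picked by r over these same libraries, so such likeness was nearly given by the choice. Unlike the rest of the adh1 list, Zm00001d045391 was highest at WS_4h (1625 TPM, against 1340 TPM at WS_6h).

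Between pyruvate decarboxylase and adh1 themselves r was 0.959. This placed adh1 at rank 70 of the 22782 other PCgenes for pyruvate decarboxylase, and pyruvate decarboxylase at rank 27 for adh1. Zm00001d010588 was nearer to both, with r = 0.976 (rank 29) to pyruvate decarboxylase and r = 0.974 (rank 7) to adh1. By Spearman rho, which uses ranks only, the value between pyruvate decarboxylase and adh1 was 0.687, with ranks of 2251 and 711. The rho of Zm00001d010588 was almost the same to pyruvate decarboxylase, 0.688 (rank 2237), and higher to adh1, 0.777 (rank 186). Without the WS_4h libraries r between pyruvate decarboxylase and adh1 was 0.977.

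The whole libraries bear on these values as follows. The TPM of the listed PCgenes summed to between 534645 and 689689 per library, so the listed genes are a varying part of each library's total. Factors that would bring the libraries to a common scale lay between 0.965 and 1.06, and the mean correlation of a library with the other libraries of its time point was between 0.951 and 0.986. Of the 21 libraries, 16 were nearest to one of their own time point. WS_2h replicate 1, the lowest WS_2h library for both genes, was instead nearest to a WS_8h library. The remaining exceptions were WS_10h libraries nearest to WS_12h and WS_12h libraries nearest to WS_10h. The labels name no batch, and read depth was not given in the values used here. The level of a clock gene also differed along the series: Zm00001d049543, which the paper names CCA1, had a mean of 4.07 TPM at WS_12h, against 20.7 TPM at WS_0h, and its part in the results for both genes was not tested. This gene was picked after its values had been seen.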

How the data were processed

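Root tip RNA of 21 libraries was sequenced after a stranded library preparation. The deposited values are TPM: the authors trimmed the reads, aligned them to B73 RefGen_v4 with HISAT2 2.0.5, counted with featureCounts, converted uniquely mapped read counts to TPM and kept expressed genes. TPM keep no read depth, so no counting error is given, and precision rests on 3 libraries a time point. The lncRNA values were not used here.

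PCgenes with a mean above 1 TPM (22783) were fitted across all genes as log2(TPM + 1) with limma 3.58.1 in R 4.3.3, with 7 time point means, a mean-variance trend and no block, and p-values were adjusted by Benjamini-Hochberg over all of them. A fold change on this scale understates the change of low genes. Ratios were tested by permutation (Python 3.11.15, numpy 2.4.6, scipy 1.17.1, pandas 2.3.3), and figures drawn with matplotlib 3.10.9. The fit was tried on simulated data with independent noise and some PCgenes raised at WS_4h only. That setting is simpler than these data, and its outcome is not reported here. Each library mixed the tips of 1 plot, and where plots were not grown separately the p-values measure only the spread between these samples.

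The genes, lists and tests were chosen with earlier results of these data known. Named genes are both members, the 5 nearest profiles of each, and the glycolysis and fermentation IDs of the paper. The IDs are not paired with names, sequences or markers in the reference used here, so further pathway genes, promoter motifs and tissue markers were not analysed here.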

Additional observations from a re-analysis of the deposited data

How the results depend on the processing

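Alternatives were a replicate block, a pseudocount of 0.1 TPM, a fit restricted to the time points at issue, an empirical Bayes step without trend, median-ratio rescaling, no filter, a mean above 5 TPM and each of the 21 libraries left out in turn. Under all 28, the comparisons of Zm00001d028759 and Zm00001d033931 with WS_0h kept direction and call, with values from 2.83 to 4.94 and from 3.51 to 5.53. With 1 library left out, adh1 (Zm00001d033931) at WS_4h against WS_2h ranged from 0.71 to 1.28, the 8 h drop of Zm00001d028759 against the mean of WS_6h and WS_10h from -1.04 to -0.85, and the log2 ratio of WS_0h minus later libraries from 0.48 to 0.98. With a mean above 5 TPM, 2800 PCgenes were called up at WS_4h against WS_0h (4390 otherwise), 2269 up at WS_4h against WS_2h (3883 otherwise) and 1611 down at WS_6h against WS_4h (3025 otherwise), with fewer genes tested. Of the 5 nearest profiles, 3 were shared under Spearman rho, 2 over 7 means and 3 without WS_4h for Zm00001d028759, and 0, 1 and 2 for Zm00001d033931. Deviations of same-numbered libraries correlated by 0.01 in the median (-0.26 to 0.62, 19 of 63 pairs over 0.1), and 12 of 21 libraries were nearest to their own number. Replicate numbers thus did not pair the samples over the whole series, but a link between some same-numbered libraries was not excluded. The replicate block changed no call of Zm00001d028759 or Zm00001d033931, and adh1 (Zm00001d033931) at WS_4h against WS_2h then had an adjusted p of 0.00606 (limma with Benjamini-Hochberg, log2 fold change 1.06). Counts over all PCgenes moved with the block, for example from 638 to 705 called up at WS_10h against WS_8h. The promoter windows were not run. TPM hold no read depth, so what depth limits is unknown.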
